A study of Homo sapiens with 4 samples.

Results

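A group of 10 genes that set the pace of the G1 phase of the cell cycle was followed in cells labelled OVCAR8, with and without a knockdown of FAM49B. They are the D-type cyclins CCND1, CCND2 and CCND3, the E-type cyclins CCNE1 and CCNE2, the cyclin-dependent kinases CDK2, CDK4 and CDK6, the CDK inhibitor gene CDKN1B, which encodes p27, and the retinoblastoma gene RB1. The 10 genes were picked by symbol, as controllers of G1 progression, out of 58735 genes measured, by a rule that uses no measured value. As deposited, CCND1 was 1.77-fold lower and CDKN1B 1.80-fold higher in the knockdown libraries, CCND2 was 1.33-fold lower, and CCNE1 and RB1 had overlapping groups.

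OVCAR8, the cell line all 4 libraries are labelled with, is an established human ovarian cancer line. The control group, shCON, holds 2 libraries from cells given a scrambled short hairpin, and the group shFAM49B holds 2 libraries from cells given hairpins against FAM49B. The labels record the genotype of shCON as WT, and describe hairpin plasmids delivered by lipid transfection with harvest 36 h later, while the text on the design speaks of a stable knockdown. The sources used here do not say which of the 2 applies, nor which hairpin was used, nor whether cells were selected or pooled. By its title the study asked how FAM49B bears on MAPK signalling and growth, and the only comparison is shFAM49B against shCON.

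In G1 a cell decides whether to copy its DNA. D-type cyclins, whose genes respond to growth factor signals through the MAPK pathway, bind CDK4 and CDK6, and E-type cyclins bind CDK2. Both kinds of complex phosphorylate the RB1 protein, which then releases E2F factors to switch on genes of DNA replication. CDKN1B protein binds and blocks cyclin E-CDK2 and is held by cyclin D-CDK complexes, so the balance of cyclins to CDKN1B is a classical measure of the drive through G1. Much of this control acts on the proteins, by phosphorylation and degradation, which RNA does not measure.

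The libraries held 15639559 to 16875353 reads in genes. FAM49B stood at 7.41 and 7.60 FPKM (reads divided by gene length and by a library factor the authors set) in shCON and at 1.06 and 1.02 FPKM in shFAM49B, which fits the labels. Of the 8 ovarian carcinoma markers, PAX8, MUC16, KRT7 and MSLN had means under 0.5 FPKM in both groups, so these defining markers were near absent. The highest were KRT8 and KRT18, which also mark other simple epithelia, and the sum of the 8 was 74.3 and 71.7 FPKM in shCON and 62.6 and 63.0 FPKM in shFAM49B. WT1 was low but present, at 1.25 and 1.56 FPKM in shCON and 0.840 and 0.845 FPKM in shFAM49B, and did not pass. EPCAM and KRT18 fell by 1.68 and 0.23 on the log2 scale. KRT18 was at −0.26 to −0.20 when any 1 library was left out, and passed in 9 of 14 alternative settings. The summed level of 8 basal and squamous epithelium markers was 542 and 485 FPKM in shCON and 33.3 and 35.3 FPKM in shFAM49B, and all 8 of 8 fell, from DSG3 at −1.81 to KRT6A at −4.37 and with KRT5, KRT14, KRT17, TP63, SFN and S100A2 between them. In the embryonic kidney and neuronal list, of 8 genes, the sum was 106 and 101 FPKM in shCON against 278 and 292 FPKM in shFAM49B. IRS4 makes up most of that difference, with means of 29.3 and 175 FPKM. IRS4, NEFL and NEFM rose (log2 fold changes of 2.54, 0.79 and 0.73), INA was at 0 in every library, and PAX2 (0.10), EYA1 (−0.40), LIN28B (−0.25) and SALL1 (−0.041) did not pass, for a list median of 0.10. Of the fibroblast and the leukocyte and endothelial markers only COL1A1 reached a mean of 1 FPKM, out of 5 and 5, with sums of 5.67 to 6.82 FPKM and 0.0220 to 0.234 FPKM over the 4 libraries. These markers move with the groups, so every difference between the groups given here moves with them as well, and their part in the results was not tested. Whether the cells of both groups are the labelled line, and 1 line, was not tested either. In bulk RNA, fewer cells of a type and less RNA per cell cannot be told apart.

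Each gene was tested with limma on log2(FPKM + 1), and passing means an adjusted p under 0.05 (Benjamini-Hochberg over the 13775 genes whose mean reached 1 FPKM). All 10 G1 genes were above that level. Of the 10, 2 rose (CDKN1B and CDK4) and 2 fell (CCND1 and CCND2), while 26.4% of all tested genes rose and 15.8% fell, 42.2% in either direction. The median log2 fold change of the 10 was −0.13, against 0.055 over all tested genes. In the deposited FPKM of 3 of the 10 genes both shFAM49B libraries were above both shCON libraries, in 5 both were below, and in 2 the groups overlapped. Such separation of the groups occurred in 74.7% of all tested genes. The counts for the 10 genes as deposited are therefore near the background, and what follows concerns single genes and their sizes. With TPM 6 of the 10 fell and 1 rose, beside 31.7% and 11.6% of all tested genes. With all 4 libraries 5812 genes passed. Leaving out a library leaves a lone library in its group and fewer residual degrees of freedom, so fewer calls follow from the design. A call lost in such a fit therefore does not show that a gene depends on that library. Only log2 fold changes are compared for such fits. The direction of the passing genes depends on scaling. As deposited, 62.7% of passing genes were higher in shFAM49B, compared with 26.8% after conversion to TPM, 29.2% with FPKM recomputed from reads, 28.2% with voom in limma on reads, 52.5% after further median-ratio scaling and 52.0% after quantile normalization. Of all tested genes, 11.6% rose and 31.7% fell with TPM, and 19.2% rose and 17.8% fell with quantile normalization, which are the backgrounds for counts given under those scalings.

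**Figure D1:**
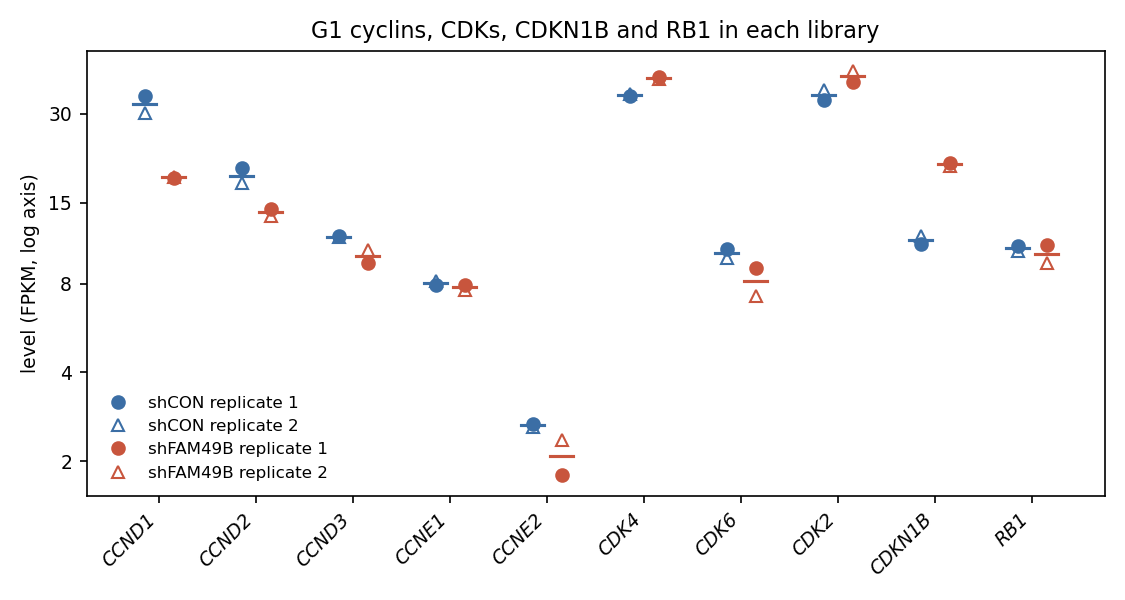
Level of each of the 10 genes in each library (FPKM on a log axis; circles replicate 1, triangles replicate 2; blue shCON, red shFAM49B; short lines the group means). CCND1 and CDKN1B have the widest gaps between groups, with CCND1 at 34.6 and 30.1 FPKM against 18.3 and 18.3, and CDKN1B at 10.9 and 11.6 FPKM against 20.5 and 20.0.

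CCND1 (ENSG00000110092, GRCh38 chromosome 11, 69641087 to 69654474, plus strand) encodes cyclin D1, the D-type cyclin best known as a MAPK-responsive gene. Its level was 34.6 and 30.1 FPKM in shCON and 18.3 and 18.3 FPKM in shFAM49B, from 2821, 2690, 1352 and 1326 reads. The shFAM49B libraries lay close together and well below both controls, which differed more from each other. Mean levels were 32.4 ± 3.19 and 18.3 ± 0.0637 FPKM (SD, n = 2), a log2 fold change of −0.79 (SE 0.0798, 95% interval −0.99 to −0.59, adjusted p = 0.00266). A fall at least this large was seen in 479 of the tested genes, 3.48%. CCND1 passed under all 14 alternative settings, with log2 fold changes from −1.05 to −0.69. Replicate 1 was 1.15 times replicate 2 for CCND1 in shCON and 0.995 times in shFAM49B. For the summed basal and squamous markers these ratios were 1.12 and 0.944, and in shCON the 8 single markers ran from 0.909 (SFN) to 1.21 (DSG3). LTO1 overlaps CCND1 on the opposite strand by 1399 bases, and had mean levels of 2.97 and 2.84 FPKM.

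CCND2 (ENSG00000118971, chromosome 12, 4273772 to 4305350, plus strand), which encodes cyclin D2, was at 19.7 and 17.5 FPKM in shCON and at 14.3 and 13.6 FPKM in shFAM49B. Both knockdown libraries were below both controls, by less than for CCND1. Means of 18.6 ± 1.56 and 13.9 ± 0.543 FPKM gave a log2 fold change of −0.39 (SE 0.0775, adjusted p = 0.0142). The call for CCND2 was lost with no filter on low values (adjusted p = 0.0562). Without 1 library its log2 fold change ran from −0.47 to −0.31.

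CCND3 (ENSG00000112576, chromosome 6, 41934933 to 42050357, minus strand), which encodes cyclin D3, was at 11.6 and 11.5 FPKM in shCON and at 9.35 and 10.4 FPKM in shFAM49B. The groups did not overlap, but the log2 fold change of −0.21 (95% interval −0.39 to −0.025) did not pass (adjusted p = 0.0693). CCND3 passed as lower in 6 of 14 settings, among them TPM (log2 fold change −0.46, adjusted p = 0.00719) and FPKM recomputed from reads (−0.41, adjusted p = 0.00879).

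Within each library the 3 D-type cyclins can be set against each other, and such a ratio does not move with any scaling factor. CCND1 made up 52.6% and 51.0% of the summed D-type cyclin FPKM in shCON and 43.5% and 43.4% in shFAM49B. CCND2 made up 29.9% and 29.6% in shCON against 34.2% and 32.0%, and CCND3 17.6% and 19.5% against 22.3% and 24.6%. CCND1 thus lost share to both others, with no overlap of the groups. The summed D-type cyclin level was 65.9 and 59.1 FPKM in shCON and 41.9 and 42.3 FPKM in shFAM49B, 1.48-fold lower. Ratios were not tested by permutation, because 2 libraries against 2 cannot give an exact p below 0.333.

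CCNE1 (ENSG00000105173, chromosome 19, 29811898 to 29824308, plus strand) encodes cyclin E1. It was at 7.88 and 8.14 FPKM in shCON and at 7.93 and 7.60 FPKM in shFAM49B, so the groups overlapped as deposited. The reads behind these values, 339 and 384 in shCON and 310 and 290 in shFAM49B, did not overlap. Its log2 fold change was −0.040, with a 95% interval of −0.20 to 0.12 (adjusted p = 0.639). CCNE1 passed as lower with TPM (−0.28, adjusted p = 0.0332) and with FPKM recomputed from reads (−0.24, adjusted p = 0.0391).

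CCNE2 (ENSG00000175305, chromosome 8, 94879770 to 94896678, minus strand), which encodes cyclin E2, was the lowest of the 10 genes in both groups. It was at 2.68 and 2.62 FPKM in shCON and at 1.79 and 2.37 FPKM in shFAM49B, from 199, 213, 121 and 156 reads. The knockdown libraries were lower but far apart, and the log2 fold change of −0.25 (95% interval −0.56 to 0.063) did not pass (adjusted p = 0.162). It passed with TPM (−0.54, adjusted p = 0.0391), FPKM recomputed from reads (−0.41, adjusted p = 0.0442) and voom (−0.59, adjusted p = 0.00645). INTS8, on the opposite strand, overlaps CCNE2 by 1977 bases and rose from a mean of 9.84 to 13.3 FPKM (adjusted p = 0.0128). The sources used here do not say whether counting used strand, so reads of such overlapping pairs cannot be told apart.

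CDK6 (ENSG00000105810, chromosome 7, 92604921 to 92836594, minus strand) is a kinase partner of the D-type cyclins. It was at 10.4 and 9.80 FPKM in shCON and at 9.02 and 7.28 FPKM in shFAM49B, lower in both knockdown libraries, which were apart from each other. The log2 fold change of −0.29 (95% interval −0.56 to −0.019) did not pass (adjusted p = 0.0808). Without shFAM49B replicate 1 CDK6 was at −0.43, and without shFAM49B replicate 2 it was at −0.15. It passed as lower in 6 of 14 settings in all. CDK4 made up 76.8% and 78.1% of the summed CDK4 and CDK6 level in shCON and 81.6% and 84.4% in shFAM49B, with no overlap.

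CDK2 (ENSG00000123374, chromosome 12, 55966769 to 55972784, plus strand), the kinase of E-type cyclins, was at 33.4 and 36.1 FPKM in shCON and at 38.4 and 41.9 FPKM in shFAM49B. Both knockdown libraries were higher, but the log2 fold change of 0.20 (95% interval 0.020 to 0.38) did not pass (adjusted p = 0.0732). It passed with the filter at 5 FPKM (adjusted p = 0.041). CDK2 changed sign with TPM (−0.037), FPKM recomputed from reads (−0.018), quantile normalization (−0.019) and voom (−0.026). PMEL overlaps CDK2 on the opposite strand by 6016 bases and was at means of 2.79 and 2.97 FPKM.

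CDK4 (ENSG00000135446, chromosome 12, 57747727 to 57756013, minus strand) is the other kinase of D-type cyclins and a known target of the factor MYC, which binds the E-box CACGTG. Of the 10 genes, 6 had windows of 250 bases upstream of a start in the RefSeq table (GRCh38.p14): CCND3, CCNE1, CDK4, CDK6, CDKN1B and RB1. These were searched on both strands, and only CDK4 held the E-box, with 3 copies. The 2 stretches that hold them are shown because 6.34% of 35116 windows in the table have any copy and 0.0797% have 3 or more. Each is read 5′ to 3′ on the minus strand of chromosome 12, with the E-box in capitals, and GENCODE 29 places both in 5′ UTR exons of longer CDK4 transcripts.
CDK4 at chr12:57752499-57752528: gtCACGTGtgatagcaacagatCACGTGgc
CDK4 at chr12:57752394-57752423: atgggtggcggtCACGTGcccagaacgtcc
A match describes the letters only, and binding was not measured.

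CDK4 was at 34.6 and 35.0 FPKM in shCON and at 39.9 and 39.4 FPKM in shFAM49B, with close replicates and no overlap. As deposited it rose by a log2 fold change of 0.18 (SE 0.0519, adjusted p = 0.0385), but its sign turned, as for CDK2, with TPM (−0.055), FPKM recomputed from reads (−0.035), quantile normalization (−0.034) and voom (−0.043). Those settings other than quantile normalization lower all genes, by medians of −0.24, −0.19 and −0.23. Relative to the median gene CDK4 was at 0.13 as deposited, 0.11 with TPM, 0.094 with FPKM recomputed from reads and 0.12 with voom. With quantile normalization it was at −0.054. Its call held in 2 of 14 settings, and its log2 fold change was 0.18 to 0.19 when any 1 library was left out. The 4 libraries therefore give CDK4 no direction that holds across scalings. TSPAN31 and the gene ENSG00000139266 overlap CDK4 on the opposite strand, with mean levels of 3.14 and 5.67 FPKM in shCON and 3.92 and 3.97 FPKM in shFAM49B. An annotated copy, CDK4P1, was at 0 in every library, as were CCND2P1, CCND3P1 and CCND3P2.

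**Figure D2:**
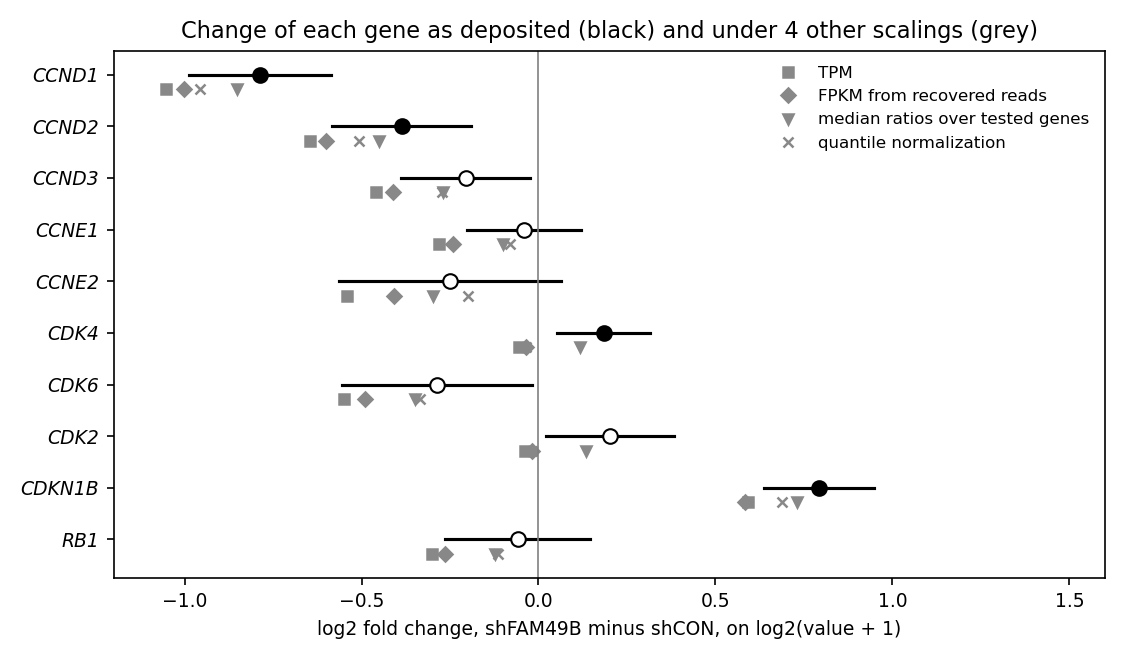
Log2 fold change of each gene on log2(value + 1), shFAM49B minus shCON (black circles as deposited with 95% intervals, filled where adjusted p was under 0.05; grey symbols 4 other scalings). CCND1, CCND2, CCND3, CCNE1, CCNE2, CDK6 and RB1 stay below 0 and CDKN1B above 0 under every scaling drawn. CDK4 and CDK2 lie on both sides of 0.

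CDKN1B (ENSG00000111276, chromosome 12, 12715058 to 12722371, plus strand) encodes p27, a CIP/KIP inhibitor known to accumulate in resting cells. Its promoter is known to be driven through CCAAT and GC boxes, bound by NF-Y and SP1. In the RefSeq window of CDKN1B the search found 2 copies of CCAAT, and 1 of the GC box GGGCGG. The 2 stretches around the CCAAT copies are shown because this gene had the largest rise of the 10, read 5′ to 3′ on the plus strand with the boxes in capitals. GENCODE 29 places both in a 5′ UTR exon of CDKN1B-201.
CDKN1B at chr12:12717182-12717211: tcacgcgaccagCCAATctcccggcggcgc
CDKN1B at chr12:12717295-12717324: cgGGGCGGctcccgccgccgcaaCCAATgg
Both boxes are common: 32.0% of all windows hold CCAAT (9.53% have 2 or more copies) and 42.6% hold the GC box. Of the 6 G1 genes, 5 have the GC box in at least 1 window. That counts genes, which have 9 windows between them, so it is not in the unit of the shares. The E2F site (TTTGGCGC or TTTCGCGC), the AP-1 site TGACTCA, the CRE TGACGTCA and the FOXO site GTAAACA matched in none of the windows searched, against 0.968%, 4.20%, 1.65% and 2.98% of all windows. These windows follow the starts in the RefSeq table, so that of RB1 lies 172724 bases from the first base of the deposited gene, and 2 of the 3 of CCND3 lie 108549 and 111152 bases from theirs. The region upstream of the first base of RB1 was therefore not searched. The TEAD site GGAATG matched in CCND3 alone, against 11.9% of all windows.

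CDKN1B was at 10.9 and 11.6 FPKM in shCON and at 20.5 and 20.0 FPKM in shFAM49B, from 517, 604, 882 and 843 reads. The replicates of each group agreed closely and the groups were far apart. Means of 11.3 ± 0.507 and 20.3 ± 0.299 FPKM gave a log2 fold change of 0.79 (SE 0.0616, 95% interval 0.64 to 0.95, adjusted p = 0.00178). Rises at least this large were found in 460 tested genes, 3.34%. CDKN1B passed under all 14 alternative settings, with log2 fold changes from 0.58 to 0.84.

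RB1 (ENSG00000139687, chromosome 13, 48303726 to 48599436, plus strand) encodes the pocket protein that CDK4, CDK6 and CDK2 phosphorylate. It was at 10.7 and 10.3 FPKM in shCON and at 10.8 and 9.39 FPKM in shFAM49B, so the groups overlapped as deposited. The reads behind these values, 1168 and 1230 in shCON and 1065 and 907 in shFAM49B, did not overlap. The log2 fold change was −0.059, with a 95% interval of −0.26 to 0.15 (adjusted p = 0.592). Without shFAM49B replicate 2 it was 0.031 (adjusted p = 0.786), and with voom RB1 passed as lower at −0.30 (adjusted p = 0.00729).

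Between the groups the order of levels differed for CDKN1B above all, which was below CCND1 and CCND2 in shCON and above both in shFAM49B. In shCON the highest were CDK2, CDK4 and CCND1, whose ranges overlapped, followed by CCND2. CCND3 and CDKN1B overlapped below them, then RB1 and CDK6, with CCNE1 and CCNE2 each apart at the bottom. In shFAM49B CDK2 and CDK4 overlapped at the top and CDKN1B came next, above CCND1 and CCND2, each apart from its neighbours. RB1 overlapped CCND3, CDK6 overlapped CCNE1, and CCNE2 was again lowest.

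Balances between cyclins and the inhibitor were read within each library. Summed D-type cyclin FPKM was 6.04 and 5.08 times CDKN1B FPKM in shCON and 2.05 and 2.11 times in shFAM49B, a 2.67-fold lower ratio. E-type cyclins, CCNE1 plus CCNE2, were 0.969 and 0.926 times CDKN1B in shCON and 0.475 and 0.498 times in shFAM49B, 1.95-fold lower. For CDK2 per CDKN1B the values were 3.07 and 3.11 in shCON and 1.88 and 2.09 in shFAM49B. D-type per E-type cyclin FPKM was 6.23 and 5.49 in shCON and 4.31 and 4.24 in shFAM49B. All 4 ratios were lower in both knockdown libraries than in both controls. They are not independent findings, as those to CDKN1B share its rise and D-type per E-type carries the fall of CCND1. Single genes separated the groups in 74.7% of all those tested. The ratio to D-type cyclins combines the fall of CCND1 with the rise of CDKN1B, while that to E-type cyclins rests mainly on CDKN1B, as summed E-type FPKM was 10.6 and 10.8 in shCON and 9.72 and 9.97 in shFAM49B.

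**Figure D3:**
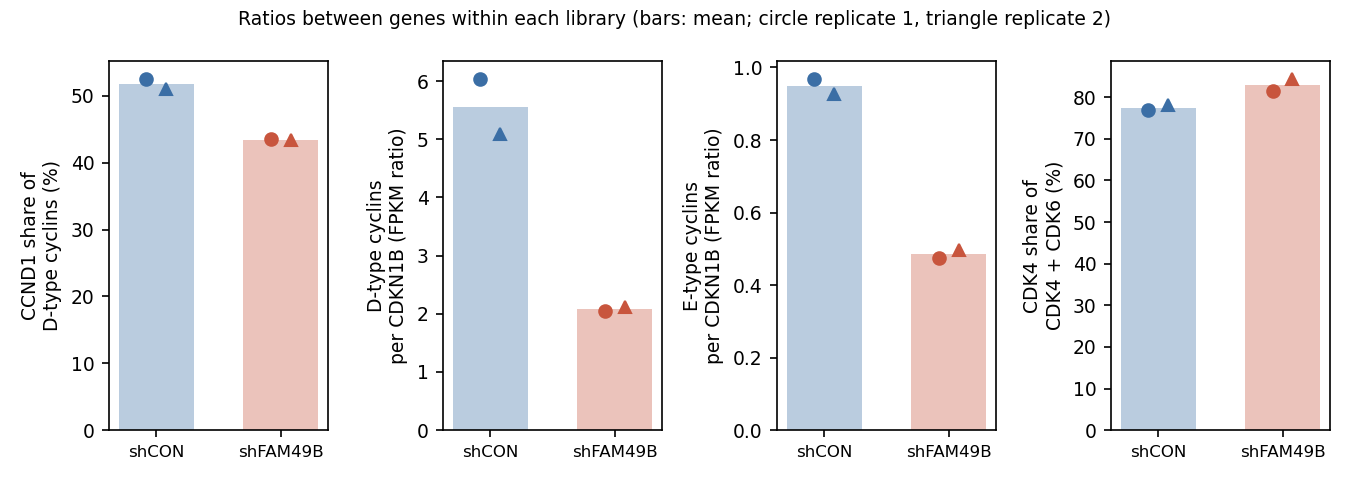
Ratios within each library (bars the group means, circles replicate 1, triangles replicate 2; percent in the outer panels, ratios of FPKM in the inner ones). Each of the 4 ratios has groups that do not overlap, with D-type cyclins per CDKN1B at 6.04 and 5.08 in shCON and 2.05 and 2.11 in shFAM49B. The inner panels share CDKN1B as denominator, and 74.7% of single tested genes also had groups that do not overlap.

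Other inhibitors of the same kinases were measured beside CDKN1B. CDKN1C, which encodes the related CIP/KIP inhibitor p57, was at 5.05 and 4.93 FPKM in shCON and at 10.6 and 10.5 FPKM in shFAM49B. That is a 2.12-fold rise (log2 fold change 0.95, adjusted p = 0.0014), and it passed under all 14 settings. CDKN1A, the gene of p21, was at 16.8 ± 0.394 and 15.2 ± 0.72 FPKM and did not pass (−0.14, adjusted p = 0.137), but was lower with TPM (−0.38, adjusted p = 0.00836). Of the INK4 inhibitors of CDK4 and CDK6, CDKN2C rose from 12.1 ± 0.119 to 14.5 ± 0.545 FPKM (0.24, adjusted p = 0.0277) and CDKN2D from 4.22 ± 0.338 to 5.83 ± 0.815 FPKM (0.38, adjusted p = 0.0389). Neither CDKN2C (0.014, adjusted p = 0.853) nor CDKN2D (0.20, adjusted p = 0.211) passed with TPM. Without 1 library CDKN2C ran from 0.21 to 0.28 on the log2 scale, and CDKN2D from 0.26 to 0.50. CDKN2A, which encodes p16 and ARF, was at 25.4 ± 1.75 and 28.2 ± 0.68 FPKM and did not pass (0.15, adjusted p = 0.14). CDKN2B, with 1.40 and 0.986 FPKM in shCON and 0.643 and 0.560 FPKM in shFAM49B, was under the level tested. Of 5 tested inhibitors outside the 10 genes, 3 rose and none fell, with a median of 0.24. Beside this, 26.4% of all tested genes rose and 15.8% fell. With TPM 1 inhibitor rose and 1 fell, beside 11.6% and 31.7% of all tested genes.

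Downstream of RB1, 12 genes of RB1 relatives, E2F factors and their DP partners were all tested, and 1 rose, 3 fell and 8 did not pass (median −0.081). Among all tested genes, 26.4% rose and 15.8% fell. E2F1, an activator of replication genes, rose from 34.7 and 36.9 FPKM to 62.0 and 62.1 FPKM (log2 fold change 0.78, adjusted p = 0.00167). E2F3, another activator E2F, fell from 22.2 and 21.3 FPKM to a mean of 14.3 ± 1.32 FPKM (−0.58, adjusted p = 0.00485). E2F1 and E2F3 thus moved in opposite directions, each under all 14 settings. RBL1, the gene of p107, fell by 0.32 on the log2 scale (adjusted p = 0.0232) and TFDP1 by 0.22 (adjusted p = 0.0315). RBL1 and TFDP1 did not pass with no filter on low values (adjusted p = 0.0727 and 0.0706), nor TFDP1 with the replicate block (0.0532). Without 1 library TFDP1 ran from −0.26 to −0.19. RBL1 was at −0.28 and −0.35 without shCON replicate 1 and 2, and at −0.24 without shFAM49B replicate 2. Scaling changes this count, as 8 of the 12 were lower with TPM, under which more of all tested genes were lower too. E2F1 was 3.24 and 3.58 times RB1 in FPKM in shCON and 5.76 and 6.61 times in shFAM49B.

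Among 18 E2F target genes of S phase entry, 11 rose, none fell and 7 did not pass, with a median log2 fold change of 0.36. Over all tested genes 26.4% rose and 15.8% fell, with a median of 0.055. CDT1 and ORC1 license replication origins, and MCM5 and MCM7 are subunits of the replicative helicase. Their log2 fold changes were 1.12 (adjusted p = 0.00161) for CDT1, 0.80 for MCM5 (0.00175), 0.80 for MCM7 (0.00188) and 0.57 for ORC1 (0.0024). All 4 passed under the 14 settings. PCNA, with 192 and 216 FPKM in shCON and 189 and 184 FPKM in shFAM49B, did not pass. With TPM 8 rose and 1 fell, and with quantile normalization 8 rose and 3 fell. The shares of all tested genes were 11.6% higher and 31.7% lower with TPM, and 19.2% and 17.8% with quantile normalization. Parts of this list stood out in earlier results of these data, so its direction is a description.

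CDK activation was covered by 7 genes, of which 4 rose, none fell and 3 did not pass (median 0.27). For comparison, 26.4% of all tested genes rose and 15.8% fell. CKS2 and CKS1B encode small CDK-binding proteins, CKS1B being the cofactor with which SKP2 recognises p27 for degradation. CKS2 rose from 70.6 and 75.3 FPKM to 159 ± 2.2 FPKM (log2 fold change 1.11, adjusted p = 0.00105), and CKS1B from 38.7 ± 1.70 to 60.4 ± 1.98 FPKM (0.63, adjusted p = 0.00242). CDC25A, a phosphatase that activates CDK2, rose by 0.66 (adjusted p = 0.00272). The chaperone adaptor CDC37, which delivers CDK4 to HSP90, rose by 0.27 (adjusted p = 0.013) as deposited. It did not pass with TPM (0.032, adjusted p = 0.586), recomputed FPKM (0.051, 0.391), voom (0.045, 0.527) or quantile normalization (−0.063, 0.277). CDC37 was at 0.28 and 0.27 without shCON replicate 1 and 2, and at 0.25 without shFAM49B replicate 2.

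Of 10 genes of ubiquitin ligases that degrade G1 regulators, 3 rose, 2 fell and 5 did not pass (median 0.14). The shares over all tested genes were 26.4% higher and 15.8% lower. RNF123, a ligase of p27, was at 6.10 and 5.82 FPKM in shCON and at a mean of 9.31 ± 0.453 FPKM in shFAM49B (0.57, adjusted p = 0.00377). AMBRA1, the substrate receptor for D-type cyclins, rose from 8.11 and 7.07 FPKM to a mean of 12.0 ± 0.717 FPKM (0.60, adjusted p = 0.00578), and its ligase partner DDB1 rose by 0.46 (adjusted p = 0.00709), but by quantile normalization it was at 0.19 and did not pass (adjusted p = 0.0727). CUL4A, a scaffold of that ligase, fell by 0.31 (adjusted p = 0.0171) and FBXW7, the receptor for cyclin E, by 0.35 (adjusted p = 0.035). CUL4B, of the same list, was higher than CUL4A, at 39.3 ± 1.33 and 36.3 ± 2.17 FPKM, and did not pass (−0.11, adjusted p = 0.218). Without 1 library CUL4A ran from −0.34 to −0.27 and FBXW7 from −0.41 to −0.30. FBXW7 did not pass with no filter on low values (adjusted p = 0.105) or with quantile normalization (0.054). SKP2 itself, at 49.3 ± 1.66 and 52.9 ± 1.97 FPKM, did not pass.

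The cyclins and CDKs of later phases were measured beside those of G1. Of 5 tested, CCNB1 (0.22), CDK1 (0.29) and CCNF (0.33) rose as deposited, with adjusted p = 0.0232, 0.032 and 0.0395, and CCNA2 and CCNB2 did not pass. As deposited, 26.4% of all tested genes rose. None of the 5 rose with TPM, recomputed FPKM, median-ratio scaling, quantile normalization or voom, and CCNB1 was at −0.13 with quantile normalization. Without 1 library CCNB1 ran from 0.20 to 0.24, CDK1 from 0.20 to 0.39 and CCNF from 0.22 to 0.44.

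Transcription factors known to act on the genes of D-type cyclins or CDKN1B went both ways: of 14 tested, 4 rose, 4 fell and 6 did not pass (median −0.031). All tested genes also went both ways, with 26.4% higher and 15.8% lower. JUN, an AP-1 factor, rose 3.43-fold from 111 ± 0.971 to 380 ± 7.19 FPKM (log2 fold change 1.77, adjusted p = 0.000284). EGR1, an immediate early gene of the MAPK pathway, fell from 6.18 and 5.36 FPKM to a mean of 1.71 ± 0.283 FPKM (−1.32, adjusted p = 0.00208). JUNB and FOSL1, AP-1 genes that respond to MAPK signals, fell by 0.63 (adjusted p = 0.00315) and 0.68 (adjusted p = 0.0387). SP1, which binds GC boxes, rose 1.78-fold (0.80, adjusted p = 0.00193) and MYC, which binds the E-box, rose by 0.58 (adjusted p = 0.00276). JUN, SP1, MYC, EGR1 and JUNB passed under every setting run. FOSL1 did not pass with quantile normalization (adjusted p = 0.0624). It was at −0.59 and −0.77 without shCON replicate 1 and 2, and at −0.42 without shFAM49B replicate 1. STAT3 (0.26, adjusted p = 0.0469) and ETS2 (−0.36, adjusted p = 0.0422) passed in 2 and 8 of 14 settings. Without 1 library STAT3 ran from 0.19 to 0.32 on the log2 scale. ETS2 was at −0.22 without shCON replicate 2, and at −0.33 and −0.38 without shFAM49B replicate 1 and 2. FOXO1 and FOXO3, activators of CDKN1B, were at −0.16 and −0.17 and did not pass. FOXO4, of the same list, was at 0.14 and did not pass either.

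**Figure D4:**
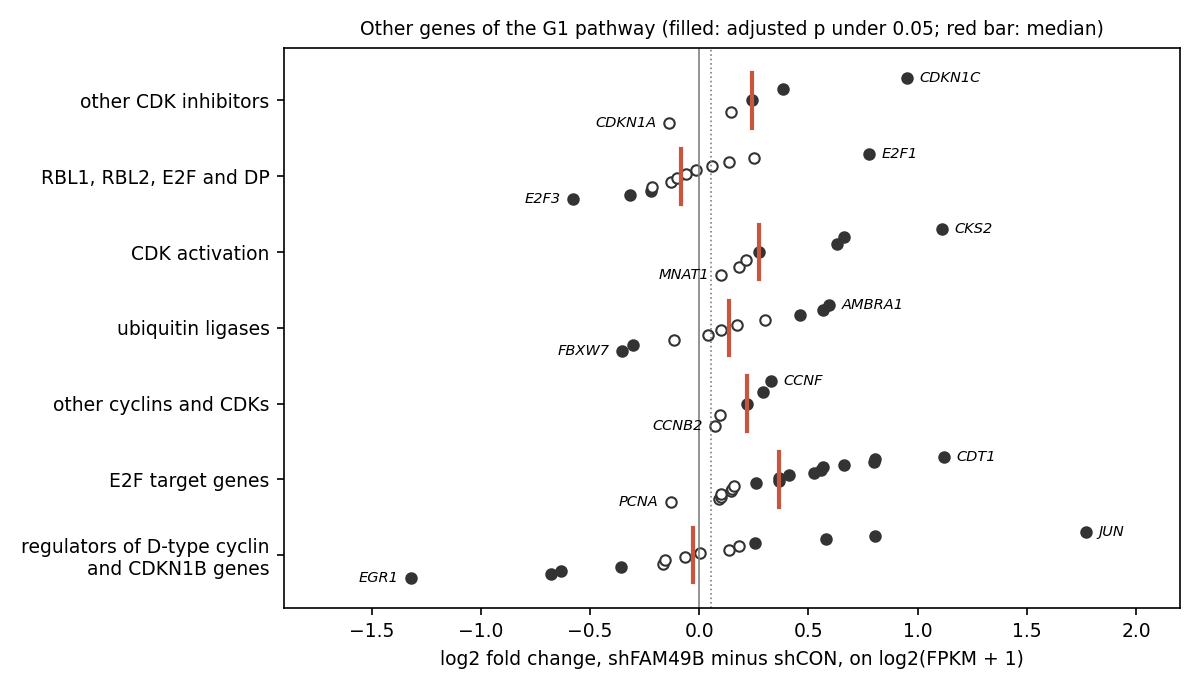
Log2 fold change of each tested gene in 7 lists around the G1 genes (filled circles adjusted p under 0.05, open circles not passing, red bars list medians, dotted line the median of all tested genes). The E2F targets have 11 filled circles to the right and none to the left, while the regulators of D-type cyclins and CDKN1B spread from EGR1 at −1.32 to JUN at 1.77. Over all tested genes 26.4% rose and 15.8% fell. With quantile normalization 8 E2F targets rose and 3 fell. The lists were chosen with earlier results of these data known.

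The genes most like CCND1 over the 4 libraries, by the mean absolute difference of log2(FPKM + 1) values centred on the shCON mean, were N4BP2 (0.0216), PIANP (0.0232) and DYNLT3 (0.0249). DYNLT3, a dynein light chain gene, was at 14.1 and 12.7 FPKM in shCON and at 7.16 and 7.42 FPKM in shFAM49B. For CDKN1B they were E2F1 (0.00878), the ephrin receptor gene EPHB1 (0.0116) and the receptor tyrosine kinase gene KIT (0.0142), which was at 3.55 and 3.95 FPKM in shCON and at 7.26 and 7.21 FPKM in shFAM49B. Likeness over 4 libraries rests mostly on the single step between the groups. N4BP2, at 0.703 and 0.754 FPKM in shFAM49B, lost its call with no filter on low values (adjusted p = 0.0566).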

How the data were processed

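RNA-seq gene levels of 2 shCON and 2 shFAM49B libraries were analysed, and titles gave each library's group and replicate number. Per the file headers, the authors deposited FPKM for 58735 genes. Mouse builds (GRCm38, mm10) stand in the submitters' processing notes, but all 58735 identifiers are human and have the start and end of GENCODE 29, so coordinates are on GRCh38. Aligner, counter and use of strand: not given in the sources used here. FPKM times gene length came in whole steps for 100% of values (tolerance 0.001 of a step), which gave 15639559 and 16875353 reads in shCON and 16288871 and 16290200 in shFAM49B. Relative to these totals the denominators behind the deposited FPKM were 1.08 and 1.10 (shCON) and 0.941 and 0.919 (shFAM49B), which shows a scaling factor between libraries. A gene of 1 kb with 3 reads, taken as the floor of detection, has 0.162 to 0.200 FPKM.

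Fits used limma 3.58.1 (R 4.3.3) and log2(FPKM + 1), moderated along the mean-variance trend, 2-sided, without covariates, with Benjamini-Hochberg adjustment over the 13775 genes whose mean reached 1 FPKM and a threshold of 0.05. The fit has 2 residual degrees of freedom and borrows 3.32 from other genes. The scale understates changes of low genes, and folds are ratios of mean FPKM. No label states separate cultures for the libraries of a group, so the spread that the p-values measure may be technical. Replicates differed by more than counting noise (chi-square per gene of 4.04 and 3.59, for genes whose pair of libraries reached 30 reads) and were kept apart.

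The genes, lists, motifs and naming rule were chosen with earlier results of these data known. Named are the 10 genes, FAM49B, all CDK inhibitors, up to 4 passing genes per direction from each pathway list (for lists with none, up to 2 with the smallest p), passing and highest markers, and the 3 protein-coding genes most like CCND1 and CDKN1B. PCNA, SKP2, CUL4B, CCNA2, CCNB2, FOXO1, FOXO3, FOXO4, WT1 and the overlapping genes were named after their values were seen. Alternatives were a pseudocount of 0.1, no filter or a filter at 5 FPKM, TPM, FPKM from recovered reads, further median-ratio scaling, quantile normalization, no trend, voom, a replicate block and leaving out each library, where the lone library of a group is assumed to vary like the others. Motif searches used upstream windows of 250 bases from RefSeq (GRCh38.p14).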

Additional observations from a re-analysis of the deposited data

How the results depend on the processing

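CCND1 and CDKN1B kept direction and call under all 14 alternatives. Over the 10 G1 genes, 100 of 139 values kept both, 11 lost the call, 19 gained it and 9 changed sign. For the other 52 named genes these were 597, 107, 5 and 9 of 718. The number of G1 genes that rose was 2 as deposited and 3 with the filter at 5 FPKM (CDK2 added). It was 1 with no filter, TPM, recomputed FPKM, median-ratio scaling, quantile normalization, no trend, voom and the replicate block. The number that fell, also 2, was 1 with no filter, 4 with the filter at 5 FPKM and 6 with TPM, recomputed FPKM and voom. Beside these, 1378 of 32758 tested genes fell with no filter and 1322 of 7756 with the filter at 5 FPKM. Out of 13775 tested genes, 4362 fell with TPM, 4173 with recomputed FPKM and 5098 with voom. Rises numbered 2185 with no filter, 3187 with the filter at 5 FPKM, 1597 with TPM, 1722 with recomputed FPKM and 2001 with voom. Of all genes, 5812 passed, against 3563 with no filter (32758 genes tested) and 3151 to 4024 without 1 library.

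Changes of sign under TPM, recomputed FPKM, quantile normalization and voom, in that order, were −0.037, −0.018, −0.019 and −0.026 for CDK2, −0.055, −0.035, −0.034 and −0.043 for CDK4, −0.091, −0.070, −0.0060 and −0.080 for CDKN2A, and −0.021, −0.0020, −0.13 and −0.0087 for CCNB1. CDC37 changed sign with quantile normalization (−0.063). RB1 ran from −0.15 to 0.031 without 1 library. The cause of these changes was not tested. Deviations of same-numbered libraries correlated at −0.0132 over genes, so no shared replicate effect was seen in these values. The correlation cannot show whether same-numbered libraries were prepared together. With the replicate block 3429 genes rose and 2036 fell, 5465 in all. Among the G1 genes CDK4 lost its call in the block (adjusted p = 0.0642) and CDK6 gained one (adjusted p = 0.0462). Of the 10 G1 genes CCNE2 had the fewest reads, 121 to 213.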
